A study of Rattus norvegicus with 36 samples.

Results

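Rat granulosa cells cultured without stimulus were compared between 10 µM and 5 µM of HPTE, the top 2 doses of a series that ran over 0, 1, 5 and 10 µM. The titles of the samples set its members, though it was picked as a comparison with earlier results of these data known. It holds 6 of the 36 arrays, 3 at 10 µM and 3 at 5 µM, each numbered 1 to 3. It asks which messages change over the last doubling of dose in cells that received neither follicle-stimulating hormone (FSH) nor cAMP. The cells came by needle puncture from ovaries of Sprague-Dawley rats aged 21 to 27 days and first settled for 24 h with 5% serum. Both groups, and all others, were then kept 48 h in serum-free medium with androstenedione, given as 0.1 µM in the series' design text and as 0.1 M in the sample descriptions. The FSH groups (3 ng/ml) and cAMP groups (1 mM) are used here for the same dose step, and the unstimulated groups at 0 and 1 µM for the levels below it. The labels do not say if a group's 3 samples are separate animals or wells of 1 pool. Its p-values therefore rest on sample-to-sample spread that may be technical.

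HPTE is the active breakdown product of the insecticide methoxychlor. It binds oestrogen receptors and opposes the androgen receptor. Granulosa cells surround the oocyte, divide while the follicle grows, and under FSH acting through cAMP turn androgen into oestradiol. Their steroid synthesis starts when the StAR protein carries cholesterol into the mitochondrion.

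From 5 to 10 µM, Akr1c15, Serping1, Casp4 and the stress genes Sesn2 and Trib3 (the latter on 1 of 3 probe sets) rose, as did Star on 1 of 2. The cell division genes Nuf2, Kif11, Ect2, Racgap1 and Plk4 fell. Of 31042 probe sets, 29 passed an adjusted p of 0.05 in limma, which is 0.0934%; 16 were higher at 10 µM (0.0515%) and 13 lower (0.0419%). Without adjustment 1275 probe sets (4.11%) had p under 0.05. With the title number added to the model, 148 probe sets passed (0.477%), 78 higher (0.251%) and 70 lower (0.226%), and these held all 29. Without adjustment that fit gave 2504 (8.07%). The median log2 difference over all probe sets was 0.0267, and 61 probe sets differed by at least 1 log2 unit, 12 of them past the threshold. Every one of the 29 had groups that did not overlap and moved in the same direction within each number. After quantile normalization between arrays 22 passed, 8 higher and 14 lower, so the share that was higher depended on the scaling. Leaving out 1 array left few calls. There were 8, 5 and 2 without number 1, 2 or 3 at 10 µM, and 1, 1 and 9 without number 1, 2 or 3 at 5 µM.

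Akr1c15, an aldo-keto reductase of the family that reduces steroids and reactive carbonyls, had the smallest p. Of the 24 genes named by the rule given below, each by its brightest probe set, it alone passed in all 6 of those runs. Of the rest, Nuf2 passed in 3, Dact1 and Ect2 in 2, Dapp1, Cavin2 and Prss35 in 1, and the others in none. The dimmer Star and Trib3 probe sets that passed were not followed through these runs. The log2 intensity of Akr1c15 was 6.84, 6.80 and 6.73 at 5 µM and 7.95, 8.05 and 8.43 at 10 µM in numbers 1, 2 and 3. The 5 µM arrays lay beside the unexposed arrays (6.46, 6.73 and 6.69), and each 10 µM array lay above all of them. The rise was 1.35 ± 0.19 on the log2 scale (SE, n = 3 against 3), or 2.56-fold, with an adjusted p of 0.00207 in limma.

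Serping1 encodes the C1 inhibitor, which restrains complement and contact proteases. It stood at 6.63, 6.89 and 6.68 at 5 µM and at 7.99, 8.13 and 8.22 at 10 µM, a 2.61-fold rise (1.38 ± 0.24, adjusted p = 0.018 in limma). Casp4 encodes an inflammatory caspase that senses cytosolic lipopolysaccharide. Its arrays read 7.93, 8.0 and 8.37 at 5 µM and 9.07, 9.37 and 9.66 at 10 µM, a rise of 1.27 ± 0.26 (adjusted p = 0.0457 in limma). Serpinb1a, an inhibitor of neutrophil proteases, rose by 1.08 ± 0.21, from 7.28 to 7.98 over the 5 µM arrays to 8.4 to 9.10 over the 10 µM arrays, while its other probe set differed by 0.25 ± 0.19 and did not pass. Slc39a8, which imports zinc and manganese, rose by 1.08 ± 0.20 from a range of 7.52 to 7.86 to one of 8.63 to 8.93. These groups were all separated, and in Casp4, Slc39a8 and Serpinb1a the 5 µM arrays were already above the unexposed ones. Their differences between 5 and 0 µM, 0.73, 0.50 and 0.84, did not pass in that comparison, which shares the 5 µM arrays, and with the title number Serpinb1a passed there (adjusted p = 0.0273 in limma).

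Cox6a2 encodes a muscle-type subunit of cytochrome c oxidase. It was dim, at 4.77, 5.08 and 5.24 at 5 µM, and reached 6.08, 5.81 and 6.26 at 10 µM, a rise of 1.02 ± 0.21 (adjusted p = 0.0457 in limma). Dact1, an antagonist in Wnt signalling, rose by 0.99 ± 0.17 from 6.33, 5.86 and 6.2 to 6.89, 7.09 and 7.36, but a second probe set differed by 0.05 ± 0.12 (adjusted p = 1). Dapp1, a phosphoinositide-binding adaptor, rose by 0.97 ± 0.19, with number 3 at 10 µM the highest array at 8.77 against 7.90 and 8.07, and its second probe set differed by 0.31 ± 0.18 without passing. None of these 3 differed from unexposed cells by more than 0.21 on the log2 scale at 5 µM. Slc6a9 and Slc38a4, which carry glycine and neutral amino acids, differed by 0.93 ± 0.20 and 1.03 ± 0.22 without passing (adjusted p = 0.0597 and 0.0665 in limma). Zcchc24 differed by 0.61 ± 0.13 (adjusted p = 0.0665). With the title number in the model all 3 passed (adjusted p = 0.00878, 0.0146 and 0.0188). Further probe sets of Slc6a9 (0.60 ± 0.15 and 0.05 ± 0.17) and Zcchc24 (0.16 ± 0.17 and 0.27 ± 0.17) passed in neither fit.

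The largest difference belonged to Star, the cholesterol carrier named above. Its 2 probe sets gave different calls. The one with the higher mean read 8.65, 8.71 and 8.12 at 5 µM and 11.09, 10.55 and 10.37 at 10 µM, a difference of 2.17 ± 0.54 that did not pass (adjusted p = 0.214 in limma) but did with the title number in the model (adjusted p = 0.00078). The other read 7.26, 7.22 and 7.72 at 5 µM and 10.19, 9.55 and 10.69 at 10 µM, and rose 6.7-fold (2.74 ± 0.43, adjusted p = 0.0126 in limma). On both probe sets each 10 µM array lay above every array at 0, 1 or 5 µM. Hsd11b1, which regenerates active glucocorticoid, had within-number differences of 1.42, 1.35 and 1.40. It did not pass in the fit without the numbers (adjusted p = 0.214) and passed with them (adjusted p = 0.00163).

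No other of the 19 measured steroidogenesis genes passed in either fit. Cyp19a1, the aromatase gene, stayed near the bottom of the scale, at 4.87, 4.48 and 4.32 at 5 µM and 4.58, 4.84 and 5.00 at 10 µM, so its groups overlapped, and its other probe sets differed by -0.04 ± 0.77 and -0.37 ± 0.74. Cyp11a1, which makes pregnenolone from cholesterol, differed by 0.27 ± 0.79 with an adjusted p of 1. Its arrays ran from 5.59 to 7.34 at 5 µM and from 6.02 to 7.56 at 10 µM, with number 3 the lowest in each group. The median over the list was 0.186 at this step, and -0.179 and -0.011 at the same step with FSH and cAMP.

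**Figure D1:**
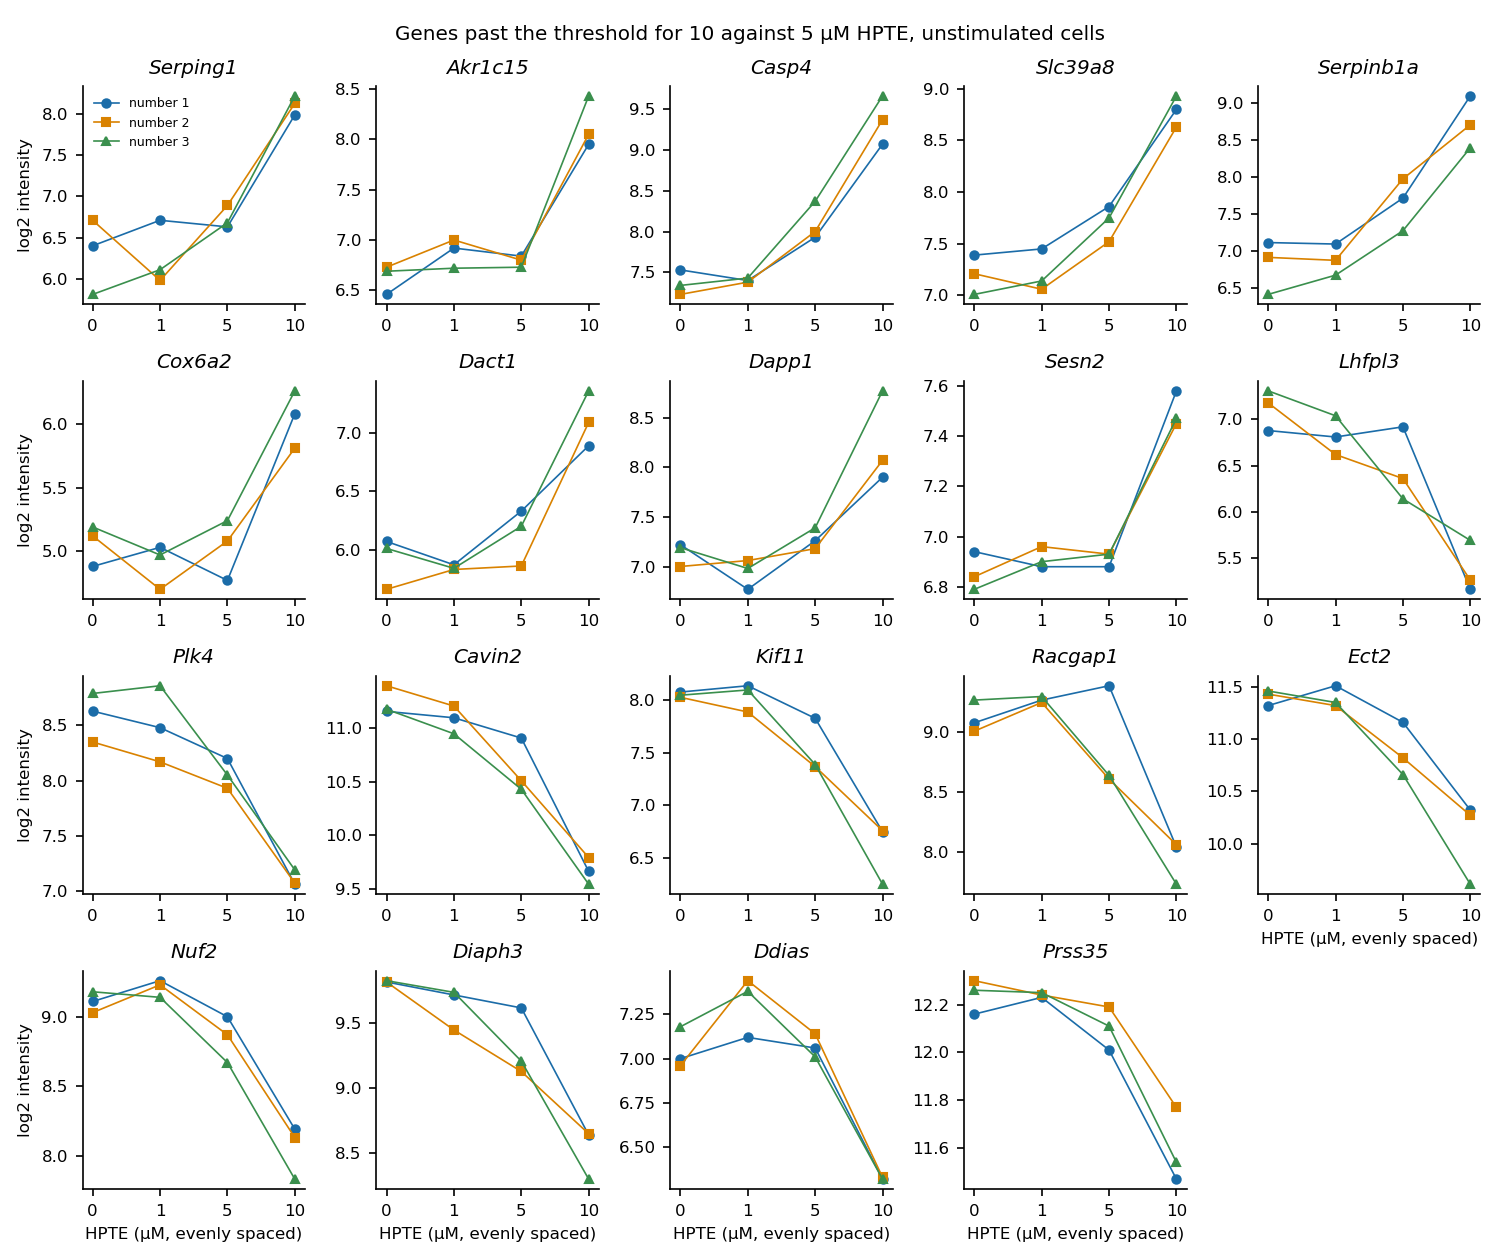
Log2 intensity (vertical axes, a separate range in each panel) of the 19 named genes past the threshold, by HPTE dose in unstimulated cells (horizontal axes, doses evenly spaced); points are single arrays and lines join arrays with the same title number. In each panel the 10 µM arrays lie wholly above or wholly below the 5 µM arrays, and Akr1c15, Sesn2, Cox6a2 and Ddias stay near their unexposed level at 5 µM while Kif11, Ect2 and Diaph3 are already lower there.

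Cells short of amino acids or with stress in the endoplasmic reticulum translate the transcription factor ATF4, which switches on genes for amino acid import, synthesis and transfer RNA charging, and brakes on growth. Of 34 measured genes on a list of these, 1 rose (Sesn2) and 5 passed with the title number in the model (Slc7a3, Trib3, Sesn2, Gdf15 and Gpt2). Of all probe sets 0.0515% were called higher without the number and 0.251% with it. The groups did not overlap in 15 of the 34 (44.1%, against 4.17% of all probe sets), all with 10 µM higher. In 28 of them 10 µM was higher in each of the 3 numbers, as it was in 16.7% of all probe sets. The median difference was 0.484, and it was 0.382 with FSH and 0.786 with cAMP at the same dose step.

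Sesn2, a brake on the growth kinase complex mTORC1 that senses leucine, was tight within groups, at 6.88, 6.93 and 6.93 against 7.58, 7.45 and 7.47, and rose by 0.59 ± 0.11 (adjusted p = 0.039 in limma). A second, dimmer probe set of the gene differed by -0.18 ± 0.16 and did not pass. Trib3, a pseudokinase that ATF4 induces and that feeds back on it, has 3 probe sets. The brightest differed by 1.52 ± 0.36 (adjusted p = 0.156 in limma, 0.0289 with the title number). A dimmer one rose by 1.39 ± 0.25, from 6.6, 7.2 and 7.28 to 8.39, 8.23 and 8.64 (adjusted p = 0.02), and the dimmest differed by 0.85 ± 0.42 (adjusted p = 1). Number 1 at 5 µM read lowest on each Trib3 probe set, so the difference within number 1 on the brightest, 2.36, exceeded those within numbers 2 and 3, 0.95 and 1.24.

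Slc7a3, a carrier of cationic amino acids, likewise read lowest in number 1 at 5 µM, with 7.38, 8.45 and 8.33 at 5 µM and 9.45, 9.72 and 9.85 at 10 µM. It differed by 1.62 ± 0.36 (adjusted p = 0.0786 in limma, 0.0128 with the title number). The cystine importer Slc7a11 differed by 1.16 ± 0.43 and passed in neither fit. Ddit3, the stress factor CHOP, had overlapping groups, 7.29 to 8.84 against 8.36 to 9.74, and a difference of 1.07 ± 0.49 (adjusted p = 1). Asns, which makes asparagine, was higher on every 10 µM array than at 5 µM (0.62 ± 0.30) without passing. The message of Atf4 itself differed by 0.34 ± 0.46 (adjusted p = 1). Of 19 transfer RNA synthetase genes none passed in either fit, while all 19 differences were above 0 (56.4% over all probe sets), with a median of 0.228 and a highest value of 0.78 for Wars1. In the chaperone list of the endoplasmic reticulum 1 of 24 passed with the title number, Atf6, against 0.251% of all probe sets called higher. The list median was 0.069.

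Genes under the oxidative stress factor Nrf2 were mixed. None of 24 passed without the title number (0.0934% of all probe sets did), and with it 2 did (0.477% of all), Akr1b8 (1.44 ± 0.33, adjusted p = 0.0404) and the efflux pump Abcc4 (1.19 ± 0.23, adjusted p = 0.0114). Akr1b8 read 8.20, 8.66 and 8.31 at 5 µM and 10.03, 9.50 and 9.95 at 10 µM, and Abcc4 read 8.34, 7.96 and 7.82 against 9.33, 9.25 and 9.12. The groups were apart with 10 µM higher in 6 of the 24 (25%, against 4.17% of all probe sets). Nqo1 and Hmox1, standard readouts of the pathway, differed by 0.51 ± 0.37 and 0.67 ± 0.35 without passing, and Gclm, a subunit of the enzyme that starts glutathione synthesis, by -0.34 ± 0.25. The list median was 0.106.

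Division needs a spindle that pulls sister chromosomes apart and a ring that then cuts the cell, and the genes for both are switched on together late in the cycle. Of 44 measured mitosis genes, 4 fell (Kif11, Racgap1, Ect2 and Nuf2) and 15 passed with the title number in the model, all lower. Of all probe sets 0.0419% were called lower without the number and 0.226% with it. All 44 differences were below 0, as were 43.6% over all probe sets, with a median of -0.691. Groups did not overlap in 28 (63.6%, against 3.46% of all probe sets with 10 µM lower), and 42 were lower in each of the 3 numbers (11.6% of all probe sets were).

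Nuf2, a kinetochore protein that ties chromosomes to the spindle, had the smallest p of the falls. It read 9.0, 8.87 and 8.67 at 5 µM and 8.19, 8.13 and 7.83 at 10 µM, and fell 1.74-fold (-0.80 ± 0.13, adjusted p = 0.0126 in limma). Kif11, the motor that separates spindle poles, went from 7.83, 7.37 and 7.39 to 6.75, 6.76 and 6.25, a fall of 1.93-fold (-0.95 ± 0.19, adjusted p = 0.0444). A dimmer Kif11 probe set differed by -0.30 ± 0.24 and did not pass.

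Ect2 and Racgap1 act together to place the cleavage ring. Ect2 read 11.16, 10.82 and 10.66 at 5 µM and 10.32, 10.27 and 9.61 at 10 µM (-0.82 ± 0.16, adjusted p = 0.039 in limma). Racgap1 read 9.39, 8.61 and 8.64 against 8.04, 8.06 and 7.73 (-0.94 ± 0.19, adjusted p = 0.0478), and its dimmer probe set differed by -0.45 ± 0.26 without passing. In Racgap1, number 1 at 5 µM stood above the other 5 µM arrays and above its unexposed level, and the fall within number 1, -1.35, was the largest of its 3. Without that array the difference was -0.68 and did not pass (adjusted p = 0.674).

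Outside the list, Plk4, which starts the copying of centrioles, read 8.20, 7.93 and 8.05 against 7.06, 7.07 and 7.19 and fell by 0.96 ± 0.19 on the log2 scale (adjusted p = 0.0444 in limma). Diaph3, a formin that builds actin filaments, fell by 0.79 ± 0.16 from a range of 9.13 to 9.62 to one of 8.30 to 8.65. Ddias, a DNA damage-induced suppressor of apoptosis, was nearly constant within groups, 7.06, 7.14 and 7.01 against 6.32, 6.33 and 6.32, and fell by 0.75 ± 0.15. Its unexposed arrays, 7.0, 6.96 and 7.18, lay beside those at 5 µM.

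Cyclin A2 (Ccna2), which drives S phase and entry to mitosis, gave an example of what the title number changes. Its groups overlapped, 9.09, 8.78 and 7.81 against 7.86, 7.79 and 6.68, while the differences within numbers were -1.23, -0.99 and -1.13. It had an adjusted p of 0.908 in the fit without the numbers and 0.015 with them. At the other end, Cdc20 and Foxm1 differed by -0.12 ± 0.29 and -0.19 ± 0.22.

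Of 30 DNA replication genes none passed without the title number, and Cdc45 alone did with it, against 0.226% of all probe sets called lower. It differed by -0.62, with a standard error of 0.27 without the number and 0.13 with it (adjusted p = 0.0179 in limma with it). The other probe sets of Cdc45 passed in neither fit, at -0.54 ± 0.37, -0.18 ± 0.18 and 0.07 ± 0.14, with errors of the fit without the number. Differences were below 0 in 28, with a median of -0.348, and groups were apart with 10 µM lower in 12 (40%, against 3.46% of all probe sets). Mcm5 of the replicative helicase read 8.46, 8.39 and 7.90 against 7.79, 7.77 and 6.88 (-0.77 ± 0.26), and thymidine kinase, Tk1, 8.33, 8.17 and 7.96 against 7.87, 7.44 and 6.86 (-0.76 ± 0.20). Of 20 genes of the G1 phase and growth arrest, Gadd45a, which is induced by DNA damage and other stress, passed with the title number (1.18 ± 0.27, adjusted p = 0.0397) and none did without it. Of all probe sets 0.251% were called higher with the number. The arrest gene Cdkn1a differed by 0.25 ± 0.80.

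**Figure D2:**
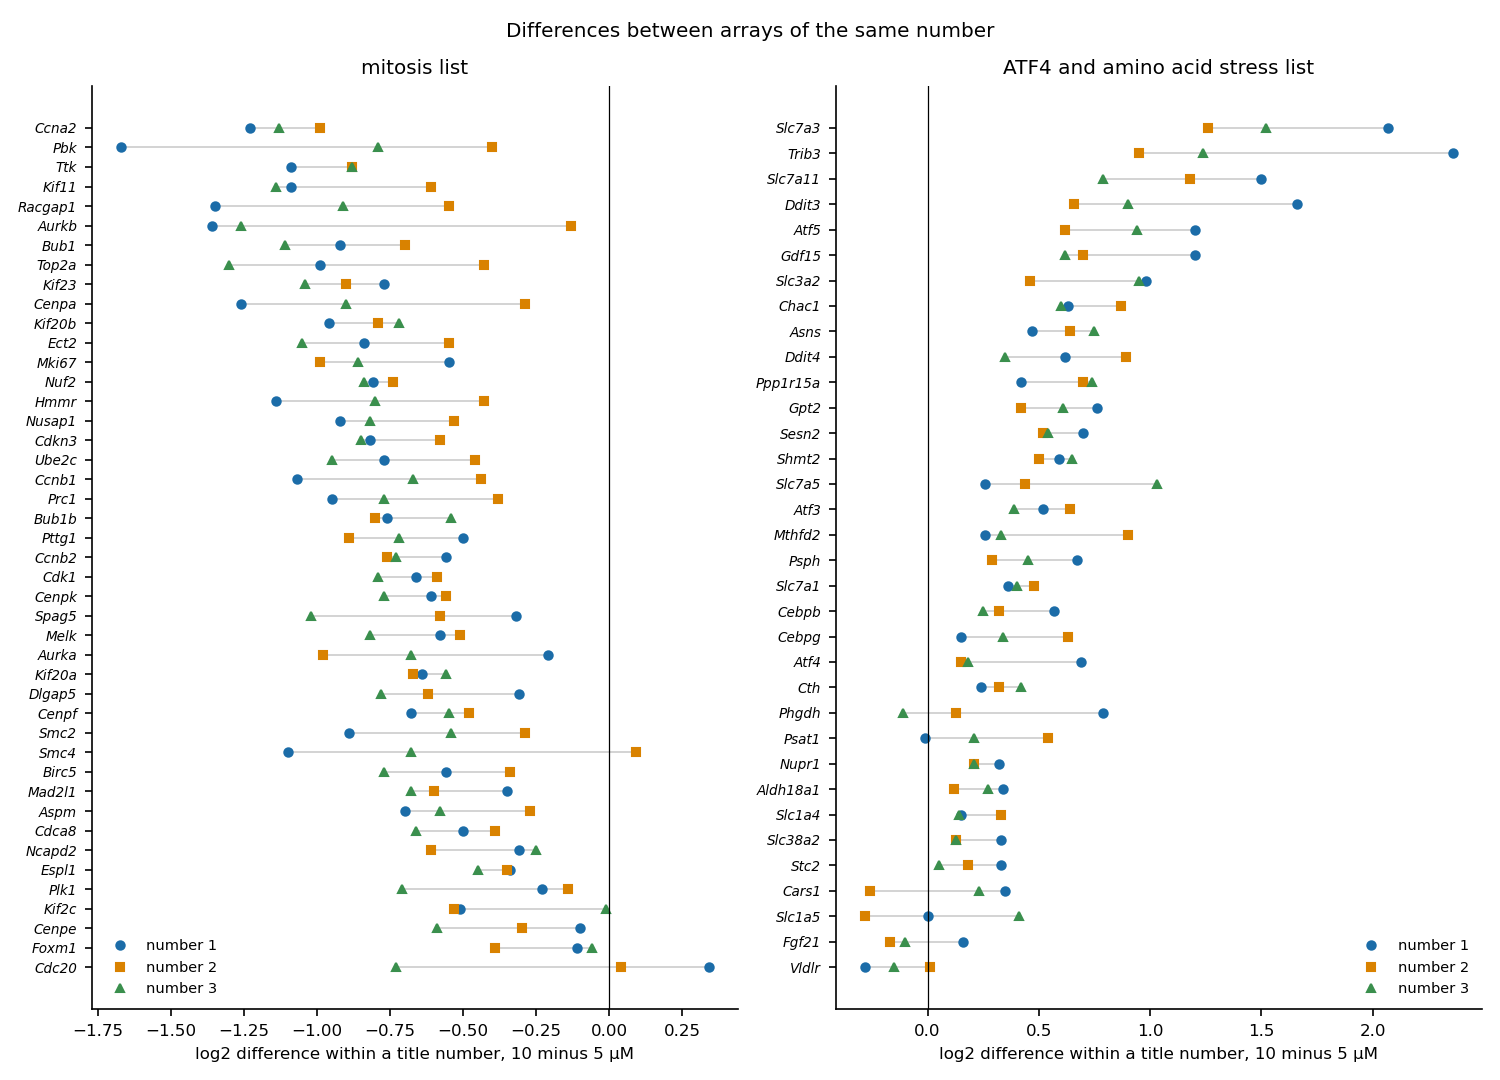
Log2 difference between the 10 and 5 µM arrays of the same title number (horizontal axis) for each measured member of the mitosis list (left, 44 genes) and of the ATF4 and amino acid stress list (right, 34 genes); each symbol is 1 number and the grey line spans the 3. In the mitosis panel 42 genes have all 3 symbols below 0, and in the ATF4 panel 28 have all 3 above it.

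The Gapdh 3′ to 5′ ratio drops where the RNA or its amplification reaches further towards the 5′ end. Its log2 was 0.77 and 0.89 in number 3 at 5 and 10 µM. In the other 4 arrays it was 1.94 to 2.03. Within numbers it differed by -0.07, -0.08 and 0.13 between the doses. The first principal component of the 12 unstimulated arrays (51.5% of the variance) set number 3 apart from numbers 1 and 2, and on the second (15.1%) number 1 at 10 µM lay farthest out, at -47.7. Granulosa markers ran from Cyp19a1 at 4.56 to Gja1 at 13.76 as means at 5 µM, with Inhba at 12.73 and Foxl2 at 10.77. Their summed linear intensity over 13 genes was lower at 10 µM, 26425 to 27262 against 28523 to 30372, without overlap, though none of the 13 passed. Groups were separated with 10 µM lower in 3 of them (23.1%), Foxl2, Inha and Gja1, against 3.46% of all probe sets. Fshr was not analysed here.

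For theca and stroma the sum over 11 genes was 3230 to 3863 at 10 µM and 3834 to 5455 at 5 µM. The sums for leukocyte (12 genes), endothelial (9), oocyte (6) and surface epithelial (8) markers overlapped between the doses, at 1267 to 2969 against 1224 to 2868, 764 to 1062 against 853 to 1167, 348 to 765 against 298 to 566, and 2024 to 2820 against 2205 to 3079. As means at 5 µM, theca and stroma markers ran from Tcf21 at 4.76 to Col3a1 and Acta2 at 10.65, with Cyp17a1 at 4.87 and Lhcgr at 4.84. Leukocyte markers ran from Itgam at 4.21 to Lyz2 at 9.75, and endothelial ones from Cldn5 at 4.67 to Kdr at 9.35. Oocyte markers ran from Mos at 4.43 to Zp2 at 7.42, with Gdf9 at 6.27. Surface epithelial ones ran from Msln at 4.43 to Wt1 at 10.91. Acta2, of stroma and smooth muscle, differed by -0.81 ± 0.55. The part of these values in the results was not tested, and fewer cells of a type and less RNA per cell cannot be told apart in such bulk samples.

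Other falls were of genes outside the division lists. Cavin2, a coat protein of caveolae, was bright and read 10.91, 10.51 and 10.43 at 5 µM and 9.66, 9.79 and 9.54 at 10 µM (-0.95 ± 0.17, adjusted p = 0.0233 in limma). Prss35, a serine protease-like secreted protein, moved little but evenly, from 12.01, 12.19 and 12.11 to 11.47, 11.77 and 11.54 (-0.51 ± 0.09, adjusted p = 0.0181). Lhfpl3, a membrane protein, had the largest fall of a named gene past the threshold (-1.10 ± 0.22, adjusted p = 0.0457), with 6.92, 6.36 and 6.14 at 5 µM. Its 10 µM arrays read 5.16, 5.26 and 5.69, and number 3 differed by less than numbers 1 and 2. Lipoprotein lipase, Lpl, which frees fatty acids from circulating fat, read 10.19, 9.90 and 10.55 against 9.14, 8.88 and 8.83 (-1.26 ± 0.27). It did not pass without the title number (adjusted p = 0.0665) and passed with it (adjusted p = 0.00257), as did Hmgn3, a nucleosome-binding protein (-0.59 ± 0.13, adjusted p = 0.0671 and 0.00937). The largest fall of any probe set past the threshold was -1.87 ± 0.31, on 1383460_at, which carries no single gene name here and read 8.22, 7.98 and 8.03 against 6.43, 6.24 and 5.94.

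Of the 25 gene lists, 10 held a member past the threshold in at least 1 of the fits with and without the title number. The p53 and apoptosis list did through Casp4 (1 of 24), cholesterol uptake through Lpl (1 of 18), and fatty acid and lipid storage through Angptl4 (1 of 30), an inhibitor of Lpl whose difference of 1.06 ± 0.21 passed with the title number alone (adjusted p = 0.0126). Of all probe sets 0.0934% passed without the number and 0.477% with it. In the other 15 lists no member passed in either fit, and their medians lay between -0.235 and 0.228. Among these, 19 of 20 actin and smooth muscle genes had differences below 0, and 4 (20%) had separated groups with 10 µM lower, against 43.6% and 3.46% of all probe sets. Oestrogen-responsive genes had a median of 0.002 over 19 members, with no separated groups, and the Ah receptor list 0.081 over 17, with Cyp1a1 at -0.13 ± 0.20. A difference that misses the threshold with 3 arrays a group does not show that a gene was level.

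**Figure D3:**
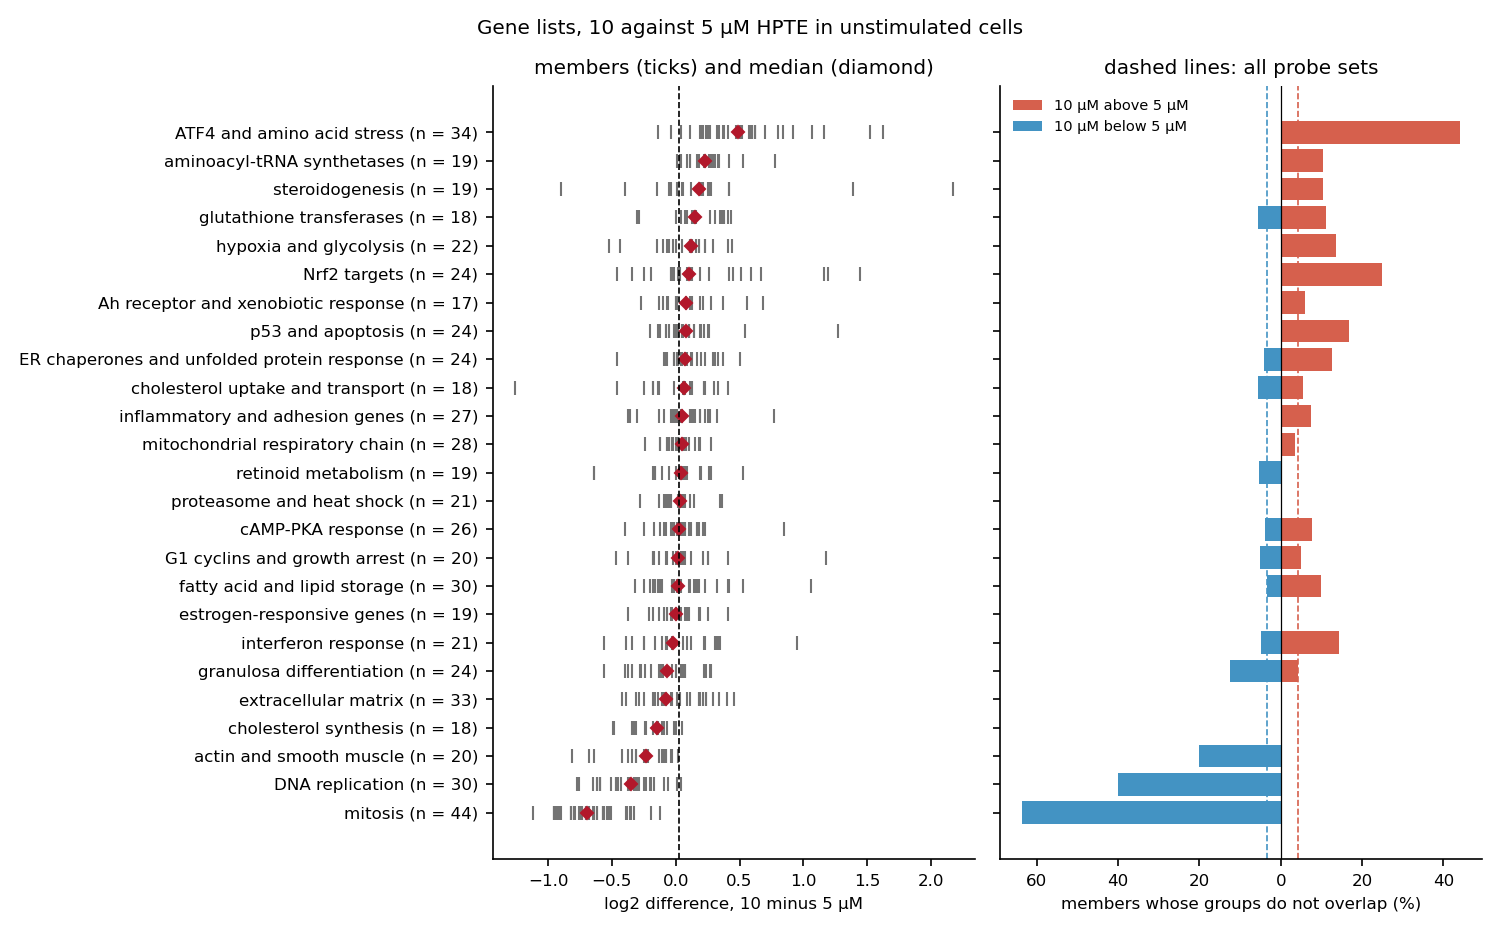
Left, log2 difference between 10 and 5 µM for each measured member of the 25 gene lists (ticks) with the list median (diamonds) and the median of all probe sets (dashed line); right, percent of members whose 3 arrays at 10 µM lie wholly above (red) or below (blue) the 3 at 5 µM, with dashed lines at the values of all probe sets, 4.17% and 3.46%. Mitosis and DNA replication extend furthest to the lower side (63.6% and 40%) and the ATF4 list to the higher side (44.1%).

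Promoter letters were counted for the lists as written and for the genes called. The ATF4 and Nrf2 lists hold genes under these factors, so a high share of their elements can follow from how the lists were made. The list shares cover all members with a promoter, whatever their difference between the doses. Promoters of 300 bases (250 before the start and 50 after, RefSeq, GRCr8) were searched on both strands for 4 motifs, and 11733 of the 14217 measured genes had one. The cell cycle homology region TTTGAA, at which cell cycle repressor complexes bind late cycle genes, was in 28 of 38 mitosis promoters (73.7%), against 12.3% of measured genes and 18.1% of all 27457 promoters. CCAAT, the box bound by NF-Y, was in 31 of the 38 (81.6%), against 37.3% and 37.7%. Of 26 DNA replication promoters 1 (3.85%) held TTTGAA and 15 (57.7%) held CCAAT. The ATF4-bound element TGATGNAAN was in 7 of 30 ATF4 list promoters (23.3%), against 2.21% of measured genes and 3.80% of all, and the antioxidant element TGACNNNGC in 5 of 22 Nrf2 promoters (22.7%, against 14.4% and 12.2%). Among genes called without the title number, TTTGAA was in 3 of 8 promoters of those lower and 1 of 7 of those higher. CCAAT was in 4 of 8 and 3 of 7, TGATGNAAN in 1 of 8 and 1 of 7, and TGACNNNGC in 2 of 8 and 4 of 7. With the number, TTTGAA was in 47.2% of 36 lower and 17.1% of 41 higher, and CCAAT in 58.3% and 34.1%. TGATGNAAN was then in 2.78% and 7.32%, and TGACNNNGC in 22.2% and 22.0%. A match is a run of letters and not a shown binding site.

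The 250 bases before the start are given for the 2 mitosis genes with the smallest p among those that hold TTTGAA and CCAAT there, so that the spacing can be seen, with matches on either strand in capitals. Ect2 lies at chr2:111966627-111966876 on the minus strand and Smc2, a condensin subunit, at chr5:71602155-71602404 on the plus strand, both GRCr8.
Ect2: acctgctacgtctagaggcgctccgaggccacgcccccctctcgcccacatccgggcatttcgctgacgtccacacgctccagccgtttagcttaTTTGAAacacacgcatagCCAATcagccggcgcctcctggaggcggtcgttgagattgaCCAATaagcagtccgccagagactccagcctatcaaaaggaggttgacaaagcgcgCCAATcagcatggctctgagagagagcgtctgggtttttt
Smc2: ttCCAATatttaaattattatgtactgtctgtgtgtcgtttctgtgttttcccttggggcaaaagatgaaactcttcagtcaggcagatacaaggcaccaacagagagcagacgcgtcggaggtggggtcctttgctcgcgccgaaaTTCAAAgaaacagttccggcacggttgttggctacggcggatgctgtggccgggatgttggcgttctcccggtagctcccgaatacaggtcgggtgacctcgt
In Ect2 the TTTGAA began 155 bases before the start, with CCAAT at 137, 96 and 40. In Smc2 the element lay on the opposite strand, 103 bases before the start, and the single CCAAT at 248. Smc2 read 9.94, 9.53 and 9.75 at 5 µM and 9.05, 9.24 and 9.21 at 10 µM. It differed by -0.57 ± 0.14 and passed with the title number alone (adjusted p = 0.214 and 0.0419).

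Trib3 (chr3:161275534-161275783, minus strand) and Slc7a1 (chr12:11664238-11664487, plus strand) are the 2 of the ATF4 list with the smallest p whose 250 bases hold TGATGNAAN, in capitals.
Trib3: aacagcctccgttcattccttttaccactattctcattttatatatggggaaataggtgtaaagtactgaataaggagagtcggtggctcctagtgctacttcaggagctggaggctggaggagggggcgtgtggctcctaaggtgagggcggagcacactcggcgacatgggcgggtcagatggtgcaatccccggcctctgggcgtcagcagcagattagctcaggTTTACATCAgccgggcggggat
Slc7a1: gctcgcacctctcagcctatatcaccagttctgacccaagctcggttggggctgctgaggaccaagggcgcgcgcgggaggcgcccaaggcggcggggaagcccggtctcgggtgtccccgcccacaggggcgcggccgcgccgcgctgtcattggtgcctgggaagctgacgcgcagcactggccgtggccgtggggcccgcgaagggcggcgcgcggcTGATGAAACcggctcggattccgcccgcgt
The Trib3 match lay on the opposite strand 22 bases before the start, and that of Slc7a1 on the same strand at 30. Slc7a1, another carrier of cationic amino acids, differed by 0.41 ± 0.17 and passed in neither fit, with adjusted p values of 1 and 0.45, though its groups did not overlap.

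The same letters were also followed in measured genes outside the lists. Among 564 measured genes with both TTTGAA and CCAAT outside the mitosis and replication lists, the median difference was 0.00. Of these, 27 (4.79%) had separated groups with 10 µM lower, against 3.22% of the 11733, and 21 (3.72%) with 10 µM higher, against 4.79%. Within the mitosis list the median was -0.69 over the 28 with TTTGAA and -0.63 over the 10 without, while separated groups with 10 µM lower were 17 of the 28 (60.7%) and 7 of the 10 (70%). Of 252 genes with TGATGNAAN outside the ATF4 list, 15 (5.95%) had separated groups with 10 µM higher, against 4.79% of the 11733, and 13 (5.16%) with 10 µM lower, against 3.22%. Their median was 0.03, against 0.04 over the 11733. These shares carry no test.

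The same step in stimulated cells uses other arrays. With FSH, 32 probe sets passed (0.103%) and with cAMP 218 (0.702%). The 29 probe sets of the unstimulated step had the same sign with FSH in all 29, and 18 of them passed there in the same direction. With cAMP 25 had the same sign and 15 passed, and none passed in the opposite direction in either. Over all probe sets the sign was shared by 70% with FSH and 65.5% with cAMP. Arrays of the same dose and number may not be free of each other across stimuli, though no other pairs of arrays were set beside them. After group and number were removed their residuals correlated by 0.14 to 0.43 between unstimulated and FSH arrays and by -0.14 to 0.25 between unstimulated and cAMP arrays.

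For 8 of the 29 probe sets the step passed in all 3 kinds of culture, 7 of them with a gene name: Akr1c15, Serping1, Casp4, Dact1, Trib3, Ect2 and Nuf2. Akr1c15 differed by 1.29 with FSH and 2.59 with cAMP, and Trib3 by 1.47 and 1.91. Mitosis genes had medians at the same step of -0.616 with FSH and -1.176 with cAMP. For 4 probe sets the step passed in neither stimulated culture, those of Star, Lhfpl3 and Cox6a2 and 1 with no single name. Their differences there kept the sign, with 1.71 and 1.45 for Star, -0.62 and -0.25 for Lhfpl3, and 0.77 and 0.38 for Cox6a2. With the title number that Star probe set, the dimmer one, passed in both (adjusted p = 0.0116 and 0.0109 in limma). The brighter Star probe set then passed with cAMP alone (adjusted p = 0.0848 with FSH and 0.00544 with cAMP in limma). Cox6a2 and the unnamed 1374817_at passed with FSH (adjusted p = 0.0339 and 0.0207 in limma).

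**Figure D4:**
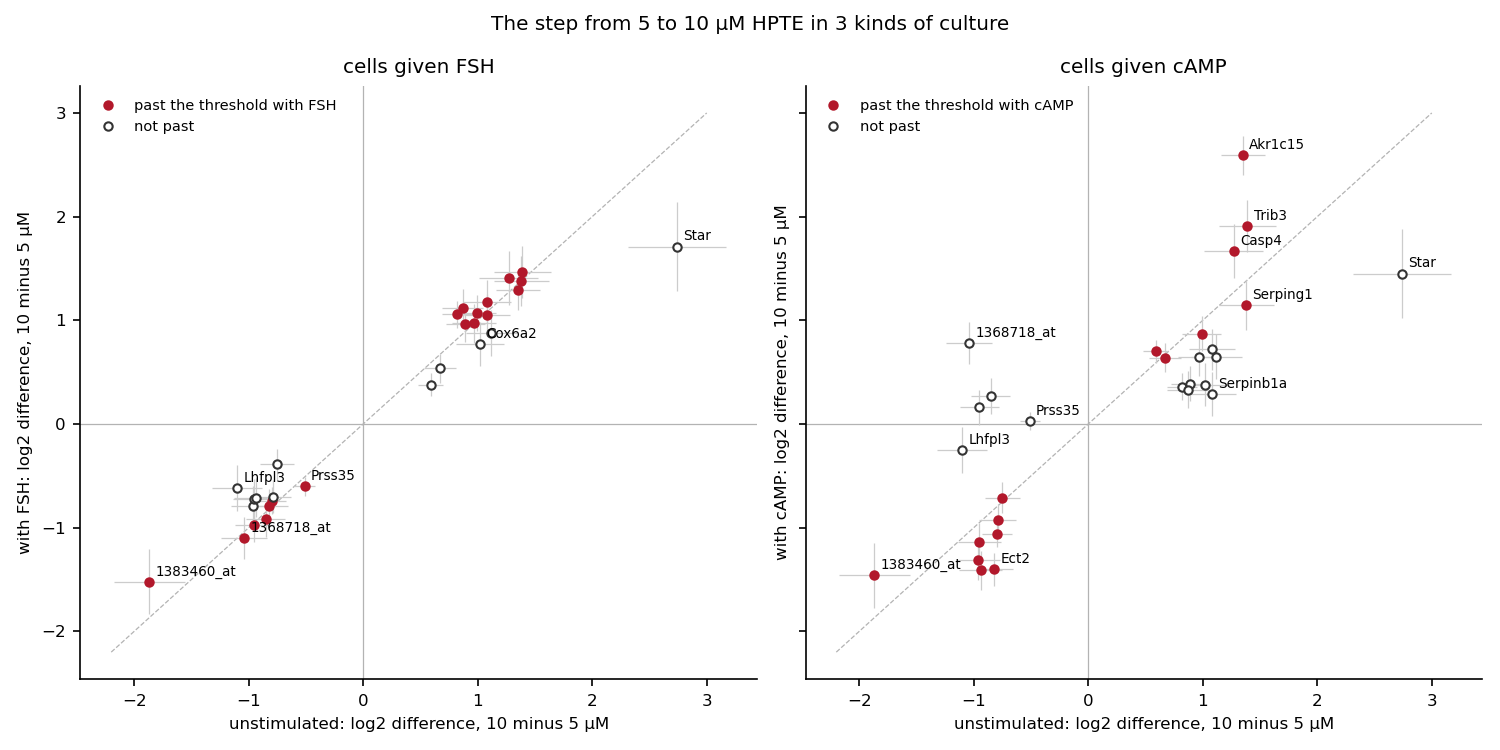
Log2 difference between 10 and 5 µM in unstimulated cells (horizontal axes) against the same difference with FSH (left) and with cAMP (right) for the 29 probe sets past the threshold without stimulus; bars are standard errors, filled points passed in the stimulated culture too, and the dashed line marks equality. With FSH all 29 share the sign, and with cAMP 4 that were lower without stimulus lie at or above 0, among them Prss35 and 1368718_at.

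The difference between the steps was tested directly. Between unstimulated cells and FSH no probe set passed in limma (0 of 31042; 146, or 0.470%, at an unadjusted p under 0.05), and none did with the title number in the model. Between unstimulated cells and cAMP 4 passed (0.0129%), all with a lower value without stimulus, and 18 did with the title number (0.058%). Without adjustment 586 did (1.89%). The 4 became 1 when number 1 or 3 of the unstimulated 5 µM arrays, number 3 of the 10 µM cAMP arrays or number 2 or 3 of the 5 µM cAMP arrays was left out, and 7 without number 2 of the 10 µM cAMP arrays. Reg3b and Reg3g, secreted C-type lectins, differed by 0.17 and 0.04 without stimulus and by 2.11 and 1.82 with cAMP, so the differences between steps were -1.94 ± 0.26 and -1.78 ± 0.29 (adjusted p = 0.0016 and 0.0127). Probe set 1368718_at fell by 1.04 ± 0.20 on the log2 scale without stimulus (adjusted p = 0.0408) and differed by 0.78 with cAMP, where it did not pass (adjusted p = 0.0783). Its unstimulated means were 8.03, 8.7, 8.59 and 7.55 at 0, 1, 5 and 10 µM. Between 10 and 0 µM it differed by -0.48 without passing (adjusted p = 0.576 in limma). Cavin2 fell without stimulus and differed by 0.16 with cAMP, and the difference between its steps, -1.11 ± 0.24, passed with the title number alone (adjusted p = 0.28 and 0.0291). For Akr1c15, whose step was larger with cAMP, it was -1.24 ± 0.26 and passed in neither fit (adjusted p = 0.271 and 0.0502).

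Whether the last step differed from the one before was tested as the 10 to 5 µM difference minus the 5 to 0 µM difference. The 5 µM arrays enter both. A gene that reverses between the steps can pass as well as one that changes at the last step only. No probe set passed (0 of 31042; 442, or 1.42%, at an unadjusted p under 0.05; smallest adjusted p 0.52 in limma), and none did with the title number. The 24 named genes were chosen on the last step itself, so their values at the steps are a description only. None of them passed between 5 and 0 µM in the fit without the title number, where the smallest adjusted p among them was 0.447 and 0.0129% of all probe sets passed. For Akr1c15 the last step exceeded the one before by 1.19 ± 0.32, and for Cox6a2 by 1.05 ± 0.36, each with an adjusted p of 1. For Ect2 and Diaph3 the excess was -0.29 ± 0.27 in each, near the size of its error. Mitosis genes had a median of -0.429 between 5 and 0 µM and of -0.017 between 1 and 0 µM, and ATF4 list genes 0.058 and -0.022.

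In a fit of the 12 unstimulated arrays with the title number, 4 genes passed the test of the last step against the one before, each with an adjusted p of 0.0333 in limma. Star was higher by 1.86 on its brighter probe set, and its other probe set did not pass. Cdo1, which breaks down cysteine, was higher by 1.97, and Il13ra2, a decoy receptor for interleukin 13, by 1.89. Both had lower means at 5 µM than at 0 or 10 µM, and Cdo1 read 8.21, 8.63 and 7.70 at 0 µM, 7.53, 7.18 and 6.63 at 5 µM and 8.12, 8.33 and 7.60 at 10 µM. The urea transporter Slc14a1 differed by -1.67, and read 5.73, 5.69 and 6.01 at 0 µM, 7.03, 6.57 and 6.92 at 5 µM and 6.18, 6.19 and 6.25 at 10 µM. Of these 4, Star alone was also past the threshold for 10 against 5 µM with the title number in the fit of all arrays.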

How the data were processed

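Samples were 36 Affymetrix rat genome arrays, 12 groups of 3, hybridised with RNA (40 ng per sample) amplified by the NuGEN Ovation system. The deposited intensity values are linear, 1 per probe set and array, and RMA is named in the submitters' processing notes; the sources used here do not give its version or say whether all arrays were normalized together. The log2 of each deposited intensity was taken here. Precision is limited by how many arrays each group has.

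Control probe sets (57 of 31099) were set aside and 31042 tested without a filter, with 1 symbol for 20826, several for 436 and none for 9780. Of the 20826, 20758 took the symbol listed for GRCr8. Each of 14217 genes was represented by its brightest probe set on average. limma 3.58.1 in R 4.3.3 fitted 12 group means with 1 variance per probe set over all arrays (24 residual degrees of freedom) and tested each contrast, two-sided, with Benjamini-Hochberg adjustment over all probe sets at 0.05. The fit was tested on simulated data. A ± value is the standard error of the fit without the title number, except where only the p of the fit with it is given or the text says so.

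Deviations of same-numbered arrays at 5 and 10 µM from their group means correlated by 0.324, 0.432 and 0.737, each above the bound of 0.1 set for pairing, while differently numbered arrays spanned -0.597 to 0.457. On that basis, which is a hint from the data and not from the labels, the numbers in the titles were taken to pair the samples and a fit with the number as a block stands beside the results. No 2 arrays were identical.

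Named genes were the 12 largest rises and falls among those past the threshold with groups that do not overlap, filled up to 12 by unadjusted p, the 5 largest each way in a test between steps, and list members. Probe set 1383460_at, Cdo1, Il13ra2 and Slc14a1 were named after their values were seen. Of 687 genes in 31 lists (25 of pathways, 6 of cell markers) 622 were measured. The comparison and the lists were chosen with earlier results of these data known. For promoters, the first RefSeq entry per gene was used, and their motifs were counted with no test.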

Additional observations from a re-analysis of the deposited data

Results flagged for a closer look

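In 4 probe sets the step from 5 to 10 µM HPTE differed between unstimulated and cAMP-treated cells by limma's test of the difference itself. For Reg3b the unstimulated minus the cAMP step was -1.94, and the 3 cAMP arrays at 10 µM read 8.03, 6.92 and 7.06 against 5.55, 5.13 and 5.00 at 5 µM, while the unstimulated arrays stayed between 4.89 and 5.16. For Reg3g the difference was -1.78, from 6.22, 5.86 and 5.96 to 7.68, 7.48 and 8.34 with cAMP. For 1373159_at, which has no single gene name here, it was -1.36. For 1368718_at it was -1.82, and this is the 1 of the 4 that also fell in unstimulated cells. Its unstimulated arrays read 8.62, 8.35 and 8.80 at 5 µM and 7.22, 7.67 and 7.77 at 10 µM, and with cAMP 8.49, 8.31 and 8.39 against 8.98, 8.96 and 9.59.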

How the results depend on the processing

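The count of 29 probe sets for 10 against 5 µM moved widely with the model. It was 148 with the title number as a block and 255 with the block in the 12 unstimulated arrays alone, 6 in those 12 without it, 0 in the 6 compared arrays alone (1024 at an unadjusted p under 0.05), 11 among the brightest probe sets (upper quartile) and 11 with a trended robust prior. Array weights gave 1044 calls, but that estimate stopped before it converged. A gene-by-gene estimate, chosen after that count was seen, gave 211. Leaving out 1 array, or 1 number from every group, gave 0 to 9. Quantile normalization (22), probe sets above the median level (27) and leaving out number 2 of the unexposed FSH and cAMP groups (33) stayed within 1.5 times. For the difference from the cAMP step (4), the block gave 18, both filters on level 1, the arrays of the contrast alone 1, weights 21 and 10, and arrays left out 0 to 7. For the last step against the one before (0), the block in the 12 unstimulated arrays gave 4 and weights 3 and 1, and arrays left out 0. The difference from the FSH step stayed at 0 throughout. The cause of these moves was not tested. None of the 24 named genes or their lists' leading medians (mitosis, DNA replication, ATF4) changed sign in any of these runs. With 3 arrays a group, small differences could not be separated from the spread.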

Other observations

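With the title number in the model, 97 genes passed by their brightest probe set, 53 higher and 44 lower at 10 µM. Igfbp1, a binding protein that holds back insulin-like growth factors, differed by 1.71 ± 0.37 (adjusted p = 0.0665 in limma without the number and 0.00239 with it), and Grb10, an adaptor that dampens the insulin receptor, by 1.47 ± 0.36 (0.214 and 0.0421). Reln, the secreted protein reelin, differed by 1.62 ± 0.44 (0.309 and 0.00105). Other genes were lower in the fit with the number, though not without it, and their standard errors are of the fit with it. They were the kinetochore and spindle genes Spc25 (-1.05 ± 0.20), Knl1 (-0.80 ± 0.18) and Knstrn (-0.89 ± 0.20), and E2f8, a repressor of the cell cycle (-0.90 ± 0.15). All genes named in this paragraph were picked after their values were seen.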
